A study of Mus musculus with 10 samples.

Results

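Oxidative phosphorylation genes were taken as the symbols of the 5 complexes of the respiratory chain and ATP synthase (Nduf, Sdh, Uqcr, Cox, Atp5 and the mitochondrially encoded mt-Nd, mt-Cyt, mt-Co and mt-Atp series) with at least 100 UMIs over the 10 count files. A UMI is a tag that marks a single captured RNA molecule. Of 34254 symbols in the files, 119 matched the pattern and 97 met the limit, 84 of them encoded in the nucleus and 13 in mitochondrial DNA. The members just inside the limit were Cox7b2 with 119 UMIs and Cox5b-ps with 193, and just outside it were Ndufa4l2 with 31, Cox8b with 1 and Ndufb11b with 1. The other 19 symbols below the limit had 0 UMIs. Among them were the current names of at least 14 members that the files count under older symbols, such as Atp5mc1 for Atp5g1. RNA was measured by droplet scRNA-seq in retinal ganglion cells (RGCs), the neurons whose axons form the optic nerve. By the labels, all cells came from wild-type 129S1/SvImJ mice of both sexes at 12 weeks of age, either uninjured (6 libraries) or 2 weeks after optic nerve crush (4 libraries), a lesion that severs RGC axons behind the eye. Cells were pooled from 10 retinas per batch and captured on plates with an antibody against Thy1, so neither single animals nor cells lost before capture can be followed. The comparison asks how transcripts of each complex, and of each genome, differed between injured and uninjured RGCs.

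Oxidative phosphorylation makes most of a neuron's ATP. Complex I (NADH dehydrogenase) and complex II (succinate dehydrogenase) feed electrons to complex III (cytochrome bc1), cytochrome c carries them to complex IV (cytochrome c oxidase), and complex V (ATP synthase) uses the proton gradient that complexes I, III and IV build. Some subunits of complexes I, III, IV and V are encoded in mitochondrial DNA and the others in the nucleus, whereas complex II is wholly nuclear. Several subunits of complex IV exist as a general form and a form found mainly in certain tissues, such as Cox6a2 and Cox7a1 in heart and skeletal muscle, Cox4i2 in lung and Cox6b2 in testis. RGC axons are unmyelinated within the eye and rich in mitochondria, and RGCs are the cells lost in optic neuropathies caused by mutations of mitochondrially encoded complex I genes.

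Libraries held 98 to 651 uninjured cells (1683 in all) and 273 to 527 injured cells (1609 in all, with barcodes common to injured 3 and 4 counted in each). Total UMIs per library ranged from 2839693 to 23180399 in uninjured and from 4698799 to 8860536 in injured libraries, with medians of 5180793 and 6104973. The median cell held 20437 to 34337 UMIs in uninjured and 11257 to 14695 in injured libraries. Injured 3 and injured 4 had 421 cell barcodes in common and their counts differed by no more than sampling noise (median chi-square over noise 1.01, against 1.53 or more for any other pair), so they were averaged to 1 sample, called injured 3/4. The other libraries also fell into close pairs, uninjured 1 with 2 (1.92), uninjured 3 with 4 (1.91), uninjured 5 with 6 (1.53) and injured 1 with 2 (2.46), against 4.19 or more between pairs, and the comparison takes each of these libraries as a sample of its own. Uninjured 5 and 6 were far from uninjured 1 (14.3 and 16.7) and uninjured 3 (25.8 and 27.4). Cells with a UMI of Xist, which is expressed from the inactive X chromosome of females, made up 62.1% of injured 1 and 67.4% of injured 2, and 0.569% or less of each remaining library, so the uninjured libraries show few cells with Xist although their labels give both sexes. A UMI of mCherry, a reporter that the labels do not mention, marked 7.99%, 15.02%, 86.0% and 84.3% of cells in injured 1 to 4 and 0 uninjured cells. The paper describes AAV2 vectors that carry mCherry, its negative control among them, injected into the eye before the crush, and the labels do not say whether these cells received one. Xist and mCherry are thus not balanced between the groups, and their part in a difference cannot be fully separated from injury. Among cells without an Xist UMI, an alternative chosen after seeing the data, 4 members were higher and 15 lower. These included 17 of the 20 calls over all cells given below. A cell without an Xist UMI may still come from a female, so the part of sex was not tested.

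The RGC label was checked against its markers. All 9 markers listed (Rbpms, Slc17a6, Sncg, Tubb3, Pou4f1, Pou4f2, Nefl, Nefm and Thy1) were detected in each of the 10 libraries. Their summed level was 6836 to 8311 CPM in uninjured libraries and 4545, 5038, 5592 and 5877 CPM in injured 1 to 4, with 6 of the 9 genes lower, Tubb3 higher (log2 fold change 1.22, SE 0.28, adjusted p = 0.00415, without overlap) and 2, among them Slc17a6 (log2 fold change 0.28, adjusted p = 0.171), not past the threshold. The 8 amacrine markers summed to 510 to 678 CPM in uninjured libraries and to 327, 285, 178 and 176 CPM in injured 1 to 4, led in each by Pax6, which RGCs also express. Müller glia markers summed to 204 to 283 CPM in uninjured and to 385, 437, 294 and 278 CPM in injured libraries, with Clu highest in injured libraries at 279, 318, 198 and 183 CPM. Of the 6 Müller glia markers tested, 3 were higher and 2 lower, with a median log2 fold change of -0.33. Bipolar cell markers summed to 620 to 736 CPM in uninjured and to 309 to 322 CPM in injured libraries, led in each by Gnao1, and horizontal cell markers to 60.6 to 148 CPM and to 12.6 to 24.2 CPM. Rod markers summed to at most 34.9 CPM in any library. Of 1683 uninjured cells 1032 held 3 or more markers from a different retinal class, and of 1609 injured cells 360, a count that can also follow the number of UMIs per cell. Malat1, a nuclear RNA, took 1.72 to 4.88% of UMIs in uninjured libraries and 7.09, 6.09, 8.01 and 7.95% in injured 1 to 4, and ribosomal protein genes took 2.92 to 3.89% and 5.00, 5.58, 4.59 and 4.49%. The part of these differences in the results was not tested, except where a value among cells matched for one of them is given.

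Oxidative phosphorylation genes passed the test in both directions after injury, most of them in neither. Each sample's cells were added up gene by gene, and the sums were scaled with TMM factors to CPM (a gene's count relative to its sample's scaled total), and were compared in edgeR between 3 injured and 6 uninjured samples, with p-values adjusted over the 14234 genes tested and a threshold of 0.05. All 97 members passed the filter on low counts. Of these, 4 were higher and 16 were lower after injury (20.6%), whereas 44% of all genes tested passed the threshold, 21.3% of them higher and 22.7% lower. The members' share of calls was thus below that of all genes, most clearly among higher genes. Without overlap between the groups, 5 members were higher and 19 lower, against 21.9% and 21.1% of all genes. The log2 fold change was negative for 81 of the 97 members and for 7373 of all 14234 genes, with a median of -0.34 over members and -0.03 over all genes. These p-values measure spread between these samples, and in sums over cells a smaller number of RGCs of 1 type and less RNA per cell cannot be told apart. With the close pairs of libraries summed, which leaves 2 injured and 3 uninjured samples, 2 members were higher and 8 lower. The count of lower members was 9 without uninjured 5, 8 without injured 1 and 8 without injured 2.

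**Figure D1:**
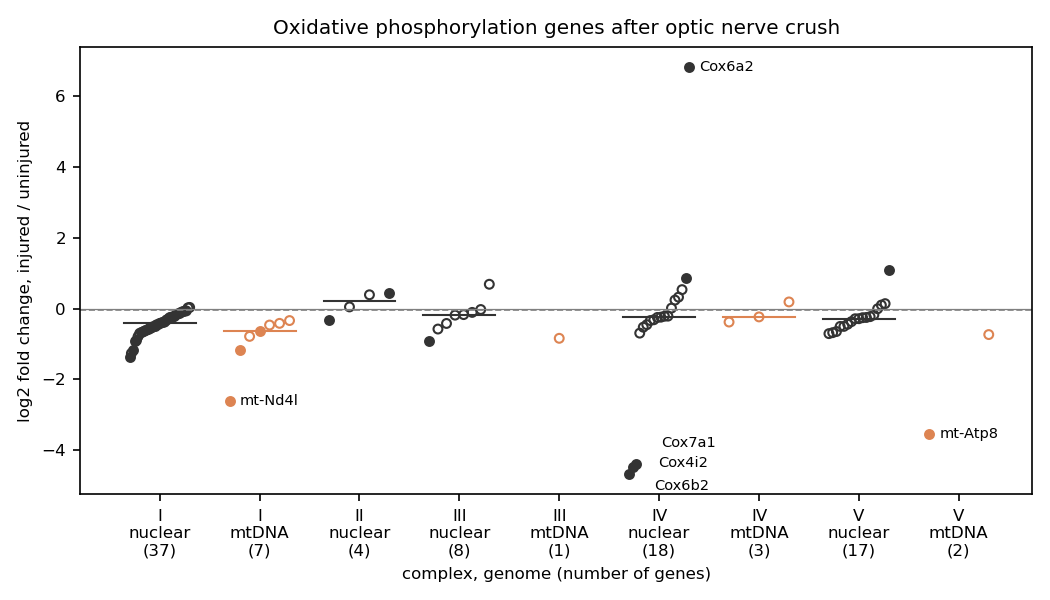
Log2 fold change (injured over uninjured) of each of the 97 oxidative phosphorylation genes by complex and genome of origin, with the number of genes in parentheses. Filled points are past the threshold, short lines are medians of groups of at least 3 genes, and the dashed line is the median of all genes tested (-0.03). Cox6a2 stands at 6.82 and Cox6b2, Cox4i2 and Cox7a1 at -4.67 to -4.40.

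By genome, the median log2 fold change was -0.31 over 84 nuclear genes (4 higher, 12 lower) and -0.63 over 13 mitochondrially encoded genes (0 higher, 4 lower). That is 19% of nuclear and 30.8% of mitochondrially encoded genes past the threshold, against 44% of all genes tested (21.3% higher, 22.7% lower). Nuclear genes of complex I had the lowest nuclear median, -0.42 over 37 genes, with 0 higher and 7 lower. Only Ndufa3 and Ndufb4 of those 7 kept the call with similar libraries summed, without injured 1 and without injured 2. The 4 genes of complex II had a median of 0.22, the 8 nuclear genes of complex III -0.18, the 18 of complex IV -0.25 and the 17 of complex V -0.28. Complex IV ranged most widely, with 2 genes higher, 3 lower and log2 fold changes from -4.67 to 6.82. In complex V, 1 nuclear gene was higher and 0 were lower by the adjusted test.

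The size of the nuclear decrease rested on uninjured 5 and 6. Nuclear members took 2.18, 2.19, 2.20 and 2.14% of UMIs in uninjured 1 to 4, 3.32 and 3.61% in uninjured 5 and 6, and 2.05, 2.30 and 2.04% in injured 1, 2 and 3/4. Injured samples therefore lay near uninjured 1 to 4 and below uninjured 5 and 6. Measured against each uninjured pair in turn, the median log2 difference of nuclear members was -0.03 for uninjured 1 with 2 (47 of 84 genes lower), -0.03 for uninjured 3 with 4 (43 lower) and -0.80 for uninjured 5 with 6 (76 lower). With both uninjured 5 and uninjured 6 left out, a choice made after seeing the data, the nuclear median was -0.01 and members past the threshold were 12 higher and 18 lower. Uninjured 5 and 6 also had the lowest Malat1 shares of any library (1.72 and 1.83%), and when cells were limited to Malat1 shares of 3 to 5% the nuclear median was 0.13. That range kept 7 and 8 cells of uninjured 5 and 6, and 260 of 1609 injured and 495 of 1683 uninjured cells in all.

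Mitochondrially encoded members took 3.12, 2.84, 5.69, 4.78, 5.47 and 5.48% of UMIs in uninjured 1 to 6 and 3.72, 3.87 and 2.03% in injured 1, 2 and 3/4, so the groups overlapped. Against the same pairs, the median log2 difference of these genes was -0.21, -0.78 and -0.94, with 8, 13 and 11 of 13 genes lower. Within complex I these shares, taken of unscaled totals, did not overlap between groups for either genome. Its nuclear genes took 0.749 to 1.26% of UMIs in uninjured samples (median 0.767) and 0.634, 0.719 and 0.618% in injured samples. Its mitochondrially encoded genes took 0.826 to 1.40% in uninjured samples (median 1.06) and 0.759, 0.796 and 0.454% in injured samples. The TMM factors behind CPM were 1.04 to 1.05 in uninjured 1 to 4 and 0.951 in injured 2. With these factors applied, injured 2 lay within the uninjured range for both genomes, so the absence of overlap depends on scaling. In complex III the ratio of mitochondrially encoded to nuclear UMIs was 2.16 to 3.40 in uninjured samples (median 2.54) and 1.80, 1.74 and 1.09 in injured samples. This ratio does not depend on scaling and did not overlap between groups. The corresponding ratios overlapped for complexes I, IV and V, and so did the shares of the other complexes.

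**Figure D2:**
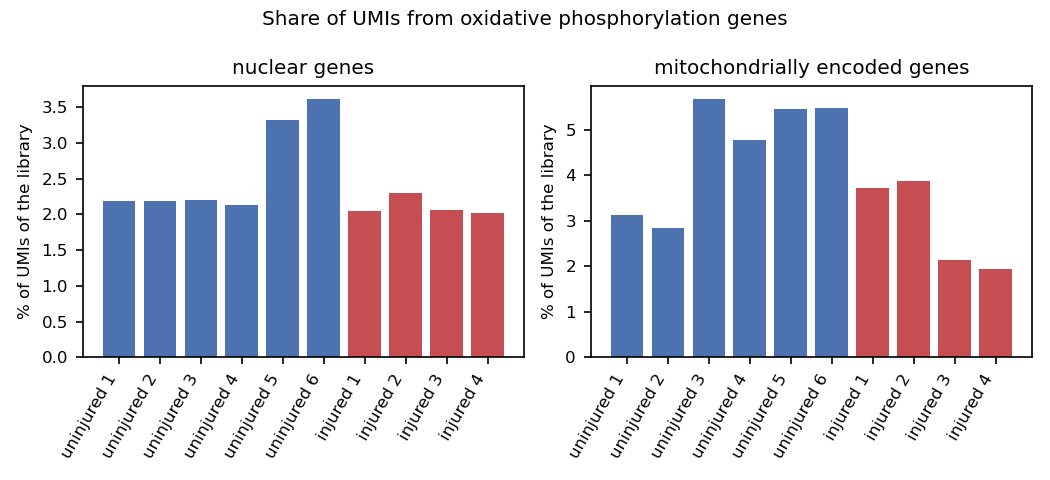
Share of a library's UMIs (%) from nuclear (left) and mitochondrially encoded (right) oxidative phosphorylation genes in each of the 10 libraries, uninjured in blue and injured in red. Nuclear genes stand at 3.32 and 3.61% in uninjured 5 and 6 and at 2.02 to 2.30% in the other libraries, and mitochondrially encoded genes are lowest in injured 3 and 4.

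RNA of several complex IV subunits changed in its mix of general and tissue-restricted forms, and protein was not measured. Cox6a2 and Cox6a1 rose after injury, and Cox4i2, Cox6b2 and Cox7a1, each the tissue-restricted form of its subunit, fell. Cox6a2, the heart and muscle form of subunit 6A, had 0, 0, 5, 8, 0 and 2 UMIs in uninjured 1 to 6, or 0 to 0.453 CPM (median 0.165), and 29.2, 30.3 and 36.9 CPM in injured 1, 2 and 3/4. Each injured sample was far above each uninjured sample (log2 fold change 6.82, SE 0.34, adjusted p = 5.07e-08), and since 3 uninjured libraries held 0 UMIs the size of this fold rests on the 15 UMIs of the others and on the fit. Its general counterpart Cox6a1 lay at 164 to 242 CPM (median 204) in uninjured and 338, 361 and 401 CPM in injured samples. Cox6a1 was thus higher in each injured sample than in any uninjured sample (log2 fold change 0.85, SE 0.15, adjusted p = 0.00061). Among cells with 4 to 10% mitochondrial UMIs Cox6a1 had a log2 fold change of 0.93 and was not past the threshold (adjusted p = 0.0712, with a range from 6.05e-08 to 0.0712 over the alternatives). That set kept 236 of 1609 injured and 1010 of 1683 uninjured cells. Of all genes tested in it, 29.9% passed the threshold, against 44% over all cells, so a call lost there may reflect fewer cells.

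Cox6b2, the testis form of subunit 6B, lay at 25.9 to 43.5 CPM (median 32.6) in uninjured and 0.875, 2.25 and 0.94 CPM in injured samples (log2 fold change -4.67, SE 0.32, adjusted p = 5.22e-07). Cox4i2, a form of subunit 4 known from lung and induced by low oxygen, lay at 16.2 to 59.1 CPM (median 20.8) and 1.05, 1.8 and 1.07 CPM (log2 fold change -4.48, SE 0.58, adjusted p = 7.37e-05). Cox7a1, the heart and muscle form of subunit 7A, lay at 19.6 to 65.7 CPM (median 27.8) and 2.45, 1.12 and 1.34 CPM (log2 fold change -4.40, SE 0.51, adjusted p = 3.23e-05). For all 3 genes the lowest uninjured sample was several times the highest injured sample. Uninjured 6 had the highest Cox4i2 and Cox7a1, at 59.1 and 65.7 CPM, whereas uninjured 1 had the highest Cox6b2. Cox6a2, Cox6b2, Cox4i2 and Cox7a1 were past the threshold in all 29 alternatives that tested them, with log2 fold changes of 5.89 to 8.46, -5.43 to -4.42, -5.41 to -3.19 and -4.79 to -3.16.

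The general forms that pair with the genes that fell showed no change past the threshold. Cox4i1 lay at 705 to 762 CPM (median 732) in uninjured and 913, 1025 and 819 CPM in injured samples, a difference without overlap that missed the threshold (log2 fold change 0.33, SE 0.14, adjusted p = 0.0714) and passed it in 5 of 30 alternatives. Cox6b1 (log2 fold change -0.45, SE 0.31, adjusted p = 0.265) and Cox7a2 (log2 fold change -0.21, SE 0.28, adjusted p = 0.563) overlapped between groups. Within a sample, the UMIs of a restricted form per 100 of its general form do not depend on scaling. Cox4i2 per 100 Cox4i1 was 2.19 to 8.27 in uninjured and 0.115, 0.175 and 0.131 in injured samples. Cox6b2 per 100 Cox6b1 was 3.72 to 11.4 and then 0.228, 0.536 and 0.307, and Cox7a1 per 100 Cox7a2 was 4.69 to 7.44 and then 0.497, 0.201 and 0.319. Cox6a2 per 100 Cox6a1 moved the other way, from at most 0.210 to 8.66, 8.40 and 9.22. None of these 4 ratios overlapped between groups. Cox8b, the muscle form of subunit 8, had 1 UMI in all libraries together, and Cox8a, the nuclear gene of the complex with most UMIs, overlapped between groups (log2 fold change -0.52, SE 0.30, adjusted p = 0.174). Picked after its values were seen, Cox7b2, the testis form of subunit 7B, had 119 UMIs in all and overlapped between groups (log2 fold change 0.02, SE 0.46, adjusted p = 0.983), as did its general form Cox7b (log2 fold change -0.34, SE 0.16, adjusted p = 0.111). Ndufa4, a subunit of complex IV despite its name, overlapped as well (log2 fold change -0.25, SE 0.31, adjusted p = 0.543), and its relative Ndufa4l2 had 0 to 10 UMIs in uninjured and 2 to 4 in injured samples.

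**Figure D3:**
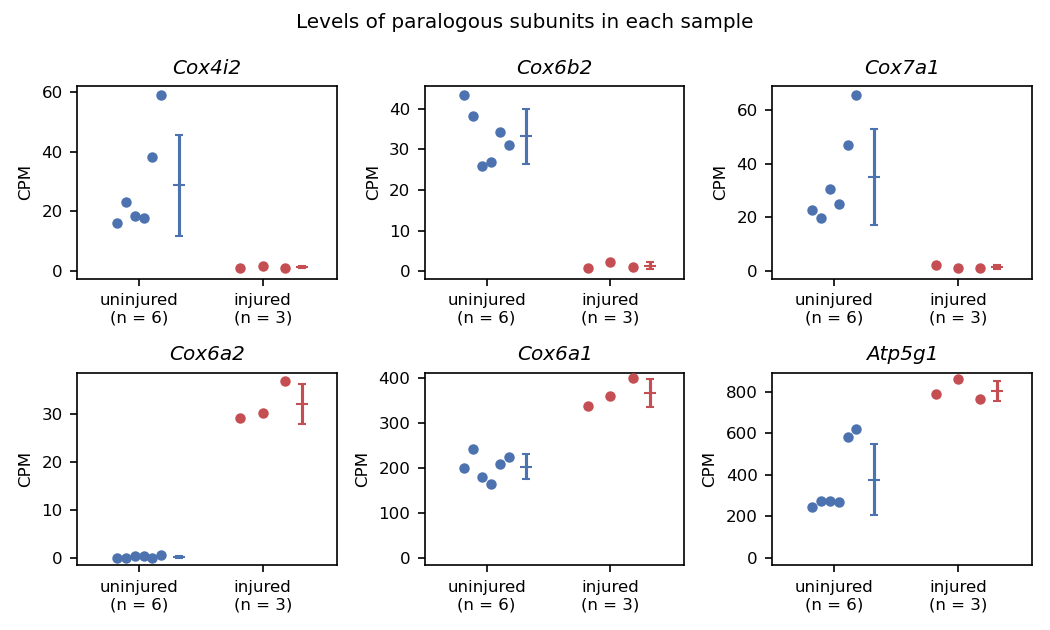
CPM of 5 subunits of complex IV or V that have tissue-restricted or duplicated forms, and of Cox6a1, in each of 6 uninjured (blue) and 3 injured (red) samples, with the mean and SD beside the points. The groups do not overlap in any panel, and Cox4i2, Cox6b2 and Cox7a1 are at or below 2.45 CPM in injured samples.

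In single cells the same split appeared in each library. Cox6a2 was detected, with at least 1 UMI, in 27.5, 24.9, 26.6 and 21.9% of cells in injured 1 to 4 and in 0.995% or less of the cells of each uninjured library. A cell without a UMI may still hold the RNA. With each cell thinned to 5000 UMIs, so that depth was equal, Cox6a2 was found in 13.1, 12.6, 13.9 and 12.9% of injured cells and in 0 to 0.154% of uninjured cells. Cox7a1 was found in 5.83 to 25% of thinned uninjured cells and 0.223 to 1.49% of thinned injured cells, and Cox6b2 in 12 to 19.6% and 0 to 0.772%. No single cell held more than 13 UMIs of Cox6a2, and its highest cell held 13 of the 336 UMIs counted in injured 3. The files hold cells selected as RGCs, so no cell type that should lack the gene was at hand and the level of free RNA in droplets could not be measured.

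In the GENCODE annotation of GRCm39, 3 of these genes lie on chromosome 7 but far apart: Cox6b2 from 4754789 to 4756093, Cox7a1 from 29883569 to 29885503 and Cox6a2 from 127804607 to 127805559. Cox4i2 lies on chromosome 2 from 152595625 to 152606959, Cox6a1 on chromosome 5 from 115483701 to 115487050 and Atp5g1, now named Atp5mc1, on chromosome 11 from 95959678 to 95966757. Nuclear members were spread over 19 chromosomes. Promoters of 69 of the 84 nuclear members were found by symbol in a RefSeq table of 300-base windows around the transcript start (GRCm38.p6), which has no entry for Cox6a2, Cox4i2 or Cox4i1. Both strands were searched for the letters of sites that nuclear genes of the respiratory chain are known for: GCATGCGC (the core bound by Nrf1), CCGGAAG (bound by ETS factors such as Gabpa), AAGATGGC (bound by Yy1) and the CCAAT box, and for TGANTCA (bound by AP-1). GCATGCGC was present for 14.5% of the members' genes against 3.05% of all genes in the table, CCGGAAG for 24.6 against 9.93%, AAGATGGC for 14.5 against 3.19%, CCAAT for 43.5 against 41.1% and TGANTCA for 10.1 against 8.97%. The windows of the complex IV and V genes that changed, and of Cox6b1 and Cox7a2 as the general counterparts of those that fell, are shown 5′ to 3′ with these letters in capitals on either strand. They were picked after the values were seen, and a match is a description, not a site in use.
Cox6a1, chr5:115348909-115349208, reverse strand: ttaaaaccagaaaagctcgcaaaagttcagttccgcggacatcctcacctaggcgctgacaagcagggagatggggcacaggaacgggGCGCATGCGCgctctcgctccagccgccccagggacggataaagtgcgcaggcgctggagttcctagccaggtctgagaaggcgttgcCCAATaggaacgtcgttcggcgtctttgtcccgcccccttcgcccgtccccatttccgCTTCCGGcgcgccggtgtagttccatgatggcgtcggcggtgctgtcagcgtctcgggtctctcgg
Atp5g1, chr11:96075582-96075881, reverse strand: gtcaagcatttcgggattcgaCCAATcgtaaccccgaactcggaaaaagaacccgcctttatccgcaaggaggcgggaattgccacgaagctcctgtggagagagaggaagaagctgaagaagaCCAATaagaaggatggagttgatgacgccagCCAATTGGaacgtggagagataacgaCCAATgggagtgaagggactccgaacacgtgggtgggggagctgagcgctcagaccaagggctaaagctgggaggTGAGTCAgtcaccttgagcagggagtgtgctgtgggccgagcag
Cox6b2, chr7:4753045-4753344, reverse strand: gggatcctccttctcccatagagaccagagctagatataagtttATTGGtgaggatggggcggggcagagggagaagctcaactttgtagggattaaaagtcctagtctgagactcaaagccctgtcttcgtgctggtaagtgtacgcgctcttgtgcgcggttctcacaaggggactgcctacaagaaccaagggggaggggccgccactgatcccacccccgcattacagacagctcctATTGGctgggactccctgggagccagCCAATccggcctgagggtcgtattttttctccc
Cox6b1, chr7:30626065-30626364, reverse strand: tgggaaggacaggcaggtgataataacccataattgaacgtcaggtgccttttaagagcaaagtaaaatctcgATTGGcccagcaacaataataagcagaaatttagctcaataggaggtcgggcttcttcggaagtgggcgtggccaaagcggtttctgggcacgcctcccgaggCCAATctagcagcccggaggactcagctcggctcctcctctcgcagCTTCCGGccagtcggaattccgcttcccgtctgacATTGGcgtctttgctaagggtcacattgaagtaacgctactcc
Cox7a1, chr7:30183921-30184220, forward strand: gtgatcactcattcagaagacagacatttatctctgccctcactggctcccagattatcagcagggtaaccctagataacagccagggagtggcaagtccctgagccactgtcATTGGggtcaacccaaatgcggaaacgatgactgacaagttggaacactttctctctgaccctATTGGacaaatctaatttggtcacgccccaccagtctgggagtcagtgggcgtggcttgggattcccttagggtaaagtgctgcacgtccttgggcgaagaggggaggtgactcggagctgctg
Cox7a2, chr9:79759804-79760103, reverse strand: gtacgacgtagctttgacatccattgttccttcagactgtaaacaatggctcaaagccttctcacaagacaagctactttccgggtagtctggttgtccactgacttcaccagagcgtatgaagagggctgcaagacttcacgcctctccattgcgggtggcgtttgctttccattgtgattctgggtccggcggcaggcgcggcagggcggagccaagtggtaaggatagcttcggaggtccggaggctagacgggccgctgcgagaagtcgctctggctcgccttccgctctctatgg
Among these windows, the 2 genes that rose differ in their letters: Cox6a1 holds GCATGCGC, CCGGAAG and CCAAT, and Atp5g1 holds CCAAT and TGANTCA. Cox6b2 and Cox7a1, which fell, hold CCAAT alone, Cox6b1 holds CCGGAAG and CCAAT, and Cox7a2 holds none of the 5.

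In complex I, 7 of 37 nuclear genes fell (18.9%, against 22.7% of all genes tested) and 0 rose. Of these 7, only Ndufa3 and Ndufb4 stayed past the threshold with similar libraries summed, without injured 1 and without injured 2. Ndufa3, an accessory subunit of the membrane arm, lay at 140.3 to 321 CPM (median 158) in uninjured and 82.1, 84.9 and 59.4 CPM in injured samples (log2 fold change -1.36, SE 0.29, adjusted p = 0.00251). Ndufb4, also of the membrane arm, lay at 50.5 to 84.7 CPM (median 58.1) and 24.3, 25.6 and 32.2 CPM (log2 fold change -1.16, SE 0.19, adjusted p = 0.000372). Neither gene overlapped between groups, and each was past the threshold in 29 of 30 alternatives, all but cells with 4 to 10% mitochondrial UMIs (log2 fold change -1.21, adjusted p = 0.111 for Ndufa3 and -1.08, adjusted p = 0.0683 for Ndufb4). A near copy, Ndufb4b, annotated in GENCODE as a long noncoding RNA, is counted separately and among the 37 nuclear genes. The paper names default Cell Ranger settings without describing how reads that fit both copies were assigned. Other genes that fell, named after their values were seen, included Ndufv3, Ndufb1, Ndufb3 and Ndufc1, with log2 fold changes from -0.93 to -0.59. None of these other genes stayed past the threshold with similar libraries summed, without injured 1 or without injured 2. Ndufs5, the nuclear gene of the complex with most UMIs, lay at 387 to 729.6 CPM (median 407) and 388, 419 and 316 CPM, with overlap (log2 fold change -0.42, SE 0.25, adjusted p = 0.196). Of the catalytic nuclear subunits, Ndufv1, which holds the NADH site, had a log2 fold change of -0.40 (adjusted p = 0.108) and Ndufs1 of -0.09 (adjusted p = 0.615), both also named after the fact.

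Complex II split: Sdhc, a membrane anchor, rose and Sdha, the flavoprotein that oxidises succinate, fell. Sdhc lay at 45 to 55.5 CPM (median 50.03) in uninjured and 58, 69.4 and 80.6 CPM in injured samples (log2 fold change 0.46, SE 0.13, adjusted p = 0.0146), and Sdha at 105 to 133 CPM (median 122) and 86.7, 101 and 99.2 CPM (log2 fold change -0.32, SE 0.12, adjusted p = 0.0498). Neither overlapped between groups. Sdha was past the threshold in 11 of 30 alternatives, and leaving out uninjured 2, uninjured 3, uninjured 4, uninjured 5, uninjured 6, injured 1, injured 2 or injured 4 ended its call, with adjusted p from 0.0645 to 0.214 and log2 fold changes from -0.35 to -0.25. Sdha was at -0.09 with 3 to 5% Malat1 (adjusted p = 0.677) and at -0.32 with similar libraries summed (adjusted p = 0.271), over a range from 0.0130 to 0.677. Sdhc was past the threshold in 26 of 30 alternatives, and its call was lost with library totals alone (log2 fold change 0.38, adjusted p = 0.0607), with cells thinned to 5000 UMIs (0.28, adjusted p = 0.284), with similar libraries summed (0.50, adjusted p = 0.1005) and with both injured 3 and injured 4 left out (0.35, adjusted p = 0.0813), over a range from 0.00236 to 0.284. Sdhb, the iron-sulphur subunit and the gene of the complex with most UMIs, overlapped between groups (log2 fold change 0.05, SE 0.31, adjusted p = 0.916). It was higher and past the threshold in 4 of 30 alternatives, with log2 fold changes up to 0.64 and adjusted p from 0.0022 to 0.9998 over all of them.

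In complex III, Uqcr11, a small accessory subunit, was the gene that fell. It lay at 247 to 608 CPM (median 262) in uninjured and 204, 216 and 144 CPM in injured samples, without overlap (log2 fold change -0.92, SE 0.33, adjusted p = 0.0409). The call was lost without uninjured 5 (log2 fold change -0.80, adjusted p = 0.0614), without injured 1 (-0.98, adjusted p = 0.0920) and without injured 2 (-1.02, adjusted p = 0.0776), and with cells of 3 to 5% Malat1 the log2 fold change was -0.25 (adjusted p = 0.363, with a range from 0.00405 to 0.370 over the alternatives). It was also lost with similar libraries summed (log2 fold change -1.01, adjusted p = 0.095), with 4 to 10% mitochondrial UMIs (-0.79, adjusted p = 0.37), with both injured 3 and injured 4 left out (-0.73, adjusted p = 0.169) and without cells holding markers of a different retinal class (-0.91, adjusted p = 0.0743), so that Uqcr11 was past the threshold in 22 of 30 alternatives. Uqcrq, the nuclear gene of the complex with most UMIs, lay at 284 to 656 CPM (median 292) and 683, 722 and 512 CPM, with uninjured 5 and 6 at 568 and 656 CPM, within the injured range, and the other uninjured samples at 284 to 297 CPM (log2 fold change 0.69, SE 0.30, adjusted p = 0.0816). Uqcrq was past the threshold in 7 of 30 alternatives, among them those without uninjured 5 (log2 fold change 0.82, adjusted p = 0.0386) or without uninjured 6 (0.89, adjusted p = 0.0114), with log2 fold changes up to 1.14 and adjusted p from 1.05e-05 to 0.436 over all of them.

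In complex V, Atp5g1 was the gene that rose. It is one of several nuclear genes for subunit c, the ring that turns in the membrane, which all give the same mature protein. Atp5g1 lay at 244 to 619 CPM (median 275) in uninjured and 788, 861 and 764 CPM in injured samples, without overlap (log2 fold change 1.09, SE 0.31, adjusted p = 0.013). The other subunit c genes, Atp5g2 (log2 fold change -0.18, SE 0.32, adjusted p = 0.69) and Atp5g3 (log2 fold change -0.37, SE 0.30, adjusted p = 0.344), overlapped between groups. Atp5g2 was higher and past the threshold in 3 of 30 alternatives, with both uninjured 5 and uninjured 6 left out (log2 fold change 0.32, adjusted p = 0.0474) and with libraries 1 to 4 of each condition, with a replicate block (0.32, adjusted p = 0.0417) or without (0.31, adjusted p = 0.0289), over a range from 0.0289 to 0.962. Atp5g1 per 100 Atp5g3 UMIs was 83.4 to 99.7 in uninjured and 312, 288 and 195 in injured samples. The call of Atp5g1 was lost among cells with 4 to 10% mitochondrial UMIs (log2 fold change 0.95, adjusted p = 0.215) and with similar libraries summed (log2 fold change 1.06, adjusted p = 0.0749), over a range from 4.20e-08 to 0.215. Atp5h, the nuclear gene of the complex with most UMIs, lay at 499 to 954 CPM (median 539.7) and 470.3, 541 and 383 CPM, with overlap (log2 fold change -0.50, SE 0.25, adjusted p = 0.132). The inhibitor of the enzyme, Atpif1, lies outside the symbol rule, and its log2 fold change was -0.16 (adjusted p = 0.681).

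Of the 13 mitochondrially encoded genes, 4 fell (30.8%, against 22.7% of all genes tested) and 0 rose. mt-Atp8, a subunit of complex V, lay at 83.2 to 531 CPM (median 206) in uninjured and 16.8, 24.9 and 22.7 CPM in injured samples (log2 fold change -3.55, SE 0.63, adjusted p = 0.000724). mt-Nd4l, of complex I, lay at 264 to 1295 CPM (median 423) and 112, 98.8 and 99.1 CPM (log2 fold change -2.62, SE 0.55, adjusted p = 0.00225). Neither gene overlapped between groups, and both were past the threshold in all 29 alternatives that tested them. Each of these genes overlaps the next on the same transcript: mt-Atp8 shares 43 bases with mt-Atp6 and mt-Nd4l shares 7 with mt-Nd4. The paper names default Cell Ranger settings, and how those treat reads over shared bases is not described. The partners, with many more UMIs, missed the threshold, mt-Atp6 at 6514, 7073 and 3939.9 CPM in injured samples (log2 fold change -0.73, SE 0.42, adjusted p = 0.177) and mt-Nd4 at 2264, 2414 and 1337 CPM (log2 fold change -0.42, SE 0.30, adjusted p = 0.293). mt-Nd5 lay at 495 to 783 CPM (median 713) and 311, 303 and 273 CPM, without overlap (log2 fold change -1.16, SE 0.19, adjusted p = 0.000476), and was not past the threshold among cells with 4 to 10% mitochondrial UMIs (-0.66, adjusted p = 0.0633).

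mt-Nd6, the gene encoded on the light strand, lay at 50.7 to 92.3 CPM (median 75.1) and 46.4, 32.6 and 63.2 CPM, and injured 3/4 lay within the uninjured range (log2 fold change -0.63, SE 0.24, adjusted p = 0.049). Its call was lost without uninjured 3, uninjured 4, uninjured 5, uninjured 6, injured 1, injured 2 or injured 3, and in 14 of 29 alternatives in all, with adjusted p from 0.00297 to 0.225. The remaining complex I genes had log2 fold changes of -0.78 for mt-Nd2 (adjusted p = 0.0747), -0.46 for mt-Nd3 (adjusted p = 0.245) and -0.34 for mt-Nd1 (adjusted p = 0.313). mt-Cytb, the mitochondrially encoded subunit of complex III, lay at 3976 to 8791 CPM (median 5875) in uninjured and 4023, 4418 and 2072 CPM in injured samples (log2 fold change -0.84, SE 0.33, adjusted p = 0.0574). mt-Cytb was past the threshold in 9 of 29 alternatives, among them the one without uninjured 2 (log2 fold change -0.92, adjusted p = 0.0411, over a range from 0.0120 to 0.388), and mt-Nd2 in 6 of 29 alternatives. The core subunits of complex IV had log2 fold changes of -0.23 for mt-Co1 (adjusted p = 0.564), -0.38 for mt-Co2 (adjusted p = 0.437) and 0.19 for mt-Co3 (adjusted p = 0.667). In injured 3/4, mt-Co1 was at 2583 CPM and below each uninjured sample, whereas injured 1 and 2 were within the uninjured range.

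**Figure D4:**
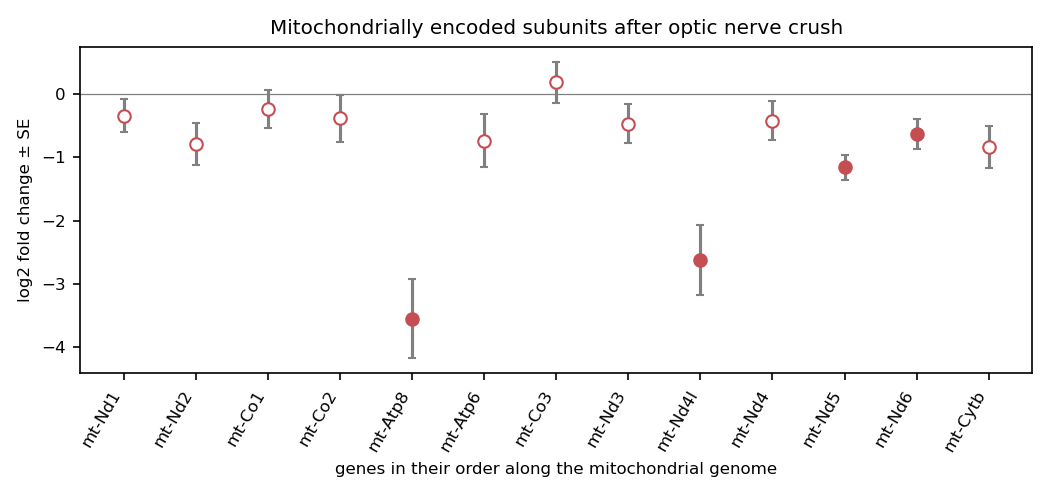
Log2 fold change (injured over uninjured) with its SE for the 13 mitochondrially encoded genes, in their order along the mitochondrial genome. Filled points are past the threshold, which holds for mt-Atp8 (-3.55), mt-Nd4l (-2.62), mt-Nd5 (-1.16) and mt-Nd6 (-0.63).

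Of 53 tested assembly factors, the proteins that build the complexes, 3 rose and 16 fell (35.8%, against 44% of all genes tested), with a median log2 fold change of -0.28. Among complex I factors, Foxred1 fell (log2 fold change -1.92, SE 0.26, adjusted p = 0.000108) and Timmdc1 rose (log2 fold change 1.07, SE 0.15, adjusted p = 0.000111). Lyrm7, a chaperone of the Rieske protein of complex III, fell (log2 fold change -1.49, SE 0.26, adjusted p = 0.000604), and Coa7, a complex IV factor, rose (log2 fold change 0.62, SE 0.16, adjusted p = 0.00666). All 4 were without overlap between groups. Foxred1 and Timmdc1 were past the threshold in all 30 alternatives. Lyrm7 lost its call with 3 to 5% Malat1 (log2 fold change -1.06, adjusted p = 0.106) and with 4 to 10% mitochondrial UMIs (-1.37, adjusted p = 0.0651), and Coa7 with cells thinned to 5000 UMIs (0.52, adjusted p = 0.0958), with 3 to 5% Malat1 (0.78, adjusted p = 0.0504) and with similar libraries summed (0.60, adjusted p = 0.0745). Of 14 genes for electron and adenylate carriers, 0 rose and 5 fell (35.7%, median -0.15), including the mitochondrial creatine kinase Ckmt1, at 59.97 to 127 CPM (median 74.7) in uninjured and 17.9, 16.6 and 19.6 CPM in injured samples (log2 fold change -2.27, SE 0.27, adjusted p = 3.85e-05), and the outer membrane channel Vdac1 (log2 fold change -1.01, SE 0.26, adjusted p = 0.00793). Vdac1 lost its call with 4 to 10% mitochondrial UMIs (log2 fold change -0.97, adjusted p = 0.0665) and with similar libraries summed (-0.98, adjusted p = 0.0664).

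Of 26 tested genes for the expression of mitochondrial DNA, 3 rose and 2 fell (19.2%, against 44% of all genes tested, median 0.02). The 2 that fell were Fastkd3 (log2 fold change -1.37, SE 0.26, adjusted p = 0.00119) and Grsf1 (log2 fold change -0.56, SE 0.15, adjusted p = 0.0113), which bind mitochondrial RNA. Tfb2m, a transcription factor of the organelle, rose (log2 fold change 0.47, SE 0.12, adjusted p = 0.00905), as did its relative Tfb1m, which methylates ribosomal RNA (log2 fold change 1.15, SE 0.28, adjusted p = 0.00594). Grsf1 lost its call without injured 2 (log2 fold change -0.52, adjusted p = 0.0567) and Tfb2m without injured 1 (0.41, adjusted p = 0.0545). With 3 to 5% Malat1 these calls were lost for Fastkd3 (log2 fold change -1.03, adjusted p = 0.0534), Grsf1 (-0.43, adjusted p = 0.0903), Tfb1m (0.78, adjusted p = 0.117) and Tfb2m (0.17, adjusted p = 0.6251), and with 4 to 10% mitochondrial UMIs for Grsf1 (-0.42, adjusted p = 0.285), Tfb1m (0.67, adjusted p = 0.262) and Tfb2m (0.61, adjusted p = 0.0997). With similar libraries summed Grsf1 (-0.58, adjusted p = 0.0812) and Tfb2m (0.44, adjusted p = 0.13) also lost theirs. In all, Fastkd3 was past the threshold in 29 of 30 alternatives, Grsf1 in 25 of 30 alternatives, Tfb2m in 25 of 30 alternatives and Tfb1m in 27 of 29 alternatives. Among 11 tested nuclear regulators of the respiratory chain, 3 rose and 0 fell (27.3%, median 0.33). Ppargc1b, a coactivator, lay at 15 to 24.7 CPM (median 17) in uninjured and 50.3, 37.7 and 40.6 CPM in injured samples (log2 fold change 1.18, SE 0.17, adjusted p = 0.000194), and Gabpa rose as well (log2 fold change 0.63, SE 0.15, adjusted p = 0.00553). Ppargc1b was past the threshold in all 30 alternatives, and Gabpa lost its call without cells holding at least 3 markers of another retinal class (log2 fold change 0.50, adjusted p = 0.0746), with 3 to 5% Malat1 (0.45, adjusted p = 0.177) and with similar libraries summed (0.67, adjusted p = 0.0504). Picked after their values were seen, Ppargc1a (log2 fold change -0.09, SE 0.27, adjusted p = 0.824), Nrf1 (log2 fold change 0.33, SE 0.13, adjusted p = 0.0552) and Tfam (log2 fold change 0.17, SE 0.13, adjusted p = 0.308) were not past the threshold.

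Of 16 genes of the tricarboxylic acid cycle 0 rose and 2 fell (12.5%, against 44% of all genes tested, median -0.14), Idh3b (log2 fold change -0.75, SE 0.27, adjusted p = 0.0433) and Sucla2 (log2 fold change -0.38, SE 0.11, adjusted p = 0.017). Without injured 1 or injured 2, neither was past the threshold (adjusted p = 0.108 and 0.124 for Idh3b, 0.0687 and 0.0816 for Sucla2), and Idh3b was also lost without uninjured 2, uninjured 5 or uninjured 6 (0.0560, 0.0627 and 0.0575). With 3 to 5% Malat1 both calls were lost (log2 fold change -0.19, adjusted p = 0.491 for Idh3b and -0.27, adjusted p = 0.192 for Sucla2), as they were with 4 to 10% mitochondrial UMIs (-0.77, adjusted p = 0.244 and -0.15, adjusted p = 0.674) and with similar libraries summed (-0.77, adjusted p = 0.12 and -0.37, adjusted p = 0.189). In all, Idh3b was past the threshold in 17 of 30 alternatives and Sucla2 in 23 of 30 alternatives. Of 78 mitochondrial ribosomal protein genes 6 rose and 11 fell (21.8%, median -0.06). Mrps12 (log2 fold change -1.27, SE 0.30, adjusted p = 0.00534) and Mrpl55 (log2 fold change -1.11, SE 0.24, adjusted p = 0.00255) fell most, and Mrpl24 (log2 fold change 0.72, SE 0.17, adjusted p = 0.00542) and Mrpl33 (log2 fold change 0.64, SE 0.21, adjusted p = 0.0292) rose most. Mrpl33 lost its call without injured 1 (log2 fold change 0.58, adjusted p = 0.106), without injured 2 (0.58, adjusted p = 0.104), with similar libraries summed (0.57, adjusted p = 0.164), with 4 to 10% mitochondrial UMIs (0.60, adjusted p = 0.261) and without cells holding markers of a different retinal class (0.65, adjusted p = 0.0587), and was past the threshold in 25 of 30 alternatives. Mrps12 and Mrpl24 also lost theirs with 4 to 10% mitochondrial UMIs (log2 fold change -1.39, adjusted p = 0.0611 for Mrps12 and 0.53, adjusted p = 0.368 for Mrpl24).

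Cells were compared within libraries after thinning to 5000 UMIs, which left out 1 to 22 cells where any were shallower. The median cell gave 1.73 to 3.68% of its UMIs to nuclear members in uninjured libraries and 1.94, 2.04, 1.96 and 1.92% in injured 1 to 4. Mitochondrially encoded members took 2.78 to 5.70% in uninjured libraries and 3.04, 3.07, 1.62 and 1.48% in injured libraries, so injured 3 and 4 were below each of the others. Across the cells of a library, Spearman correlations between the nuclear and mitochondrially encoded shares were -0.16 to -0.34 in the 6 uninjured libraries (97 to 648 cells). They were 0.14 and 0.25 in injured 1 and 2 (335 and 270 cells) and -0.10 and -0.02 in injured 3 and 4 (518 and 449 cells). The shares of a cell are parts of the same total, and each correlation is a description over cells of 1 library. With the nuclear share taken of UMIs outside mitochondrially encoded genes, the correlations were -0.12 to -0.31 in uninjured libraries. In injured 1 to 4 they were then 0.18, 0.28, -0.09 and -0.01.

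**Figure D5:**
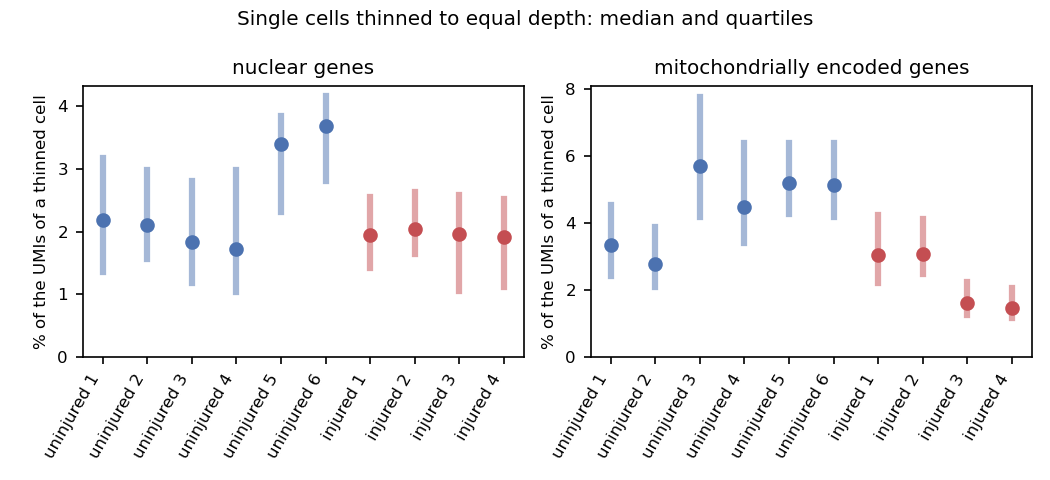
Share of the UMIs of a cell thinned to 5000 UMIs (%) from nuclear (left) and mitochondrially encoded (right) oxidative phosphorylation genes in each library, as the median (point) and quartiles (bar) over cells. Injured 3 and 4 have the lowest mitochondrially encoded medians (1.62 and 1.48%), and uninjured 5 and 6 the highest nuclear medians.

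In injured 3 and 4, which had 421 barcodes in common and do not replicate each other, thinned cells without a UMI of mCherry (69 and 68) differed from those with one (449 and 381). The nuclear share of cells without mCherry averaged 0.437 and 0.558%, against 2.08 and 2.07% in cells with mCherry. The mitochondrially encoded share moved the other way, 3.84 and 2.75% against 1.83 and 1.71%. Among all cells of injured 3 and 4, Cox4i1 was found in 36.5 and 45.9% of 74 and 74 cells without mCherry, and in 94.3 and 94.0% of those with it. Cox6a2 was found in 6.76 and 2.70% of cells without mCherry and in 29.8 and 25.4% of cells with it. The median cell of those groups held 11788 and 8707 UMIs without mCherry and 14920 and 11727 with it. Ribosomal protein genes took 1.18% of the UMIs of cells without mCherry and 5.03% of those with it in injured 3, and summed RGC markers were 2966 and 5928 CPM. In injured 1 and 2, cells with mCherry (27 and 39) had nuclear shares of 2.20 and 2.18% and cells without it 2.02 and 2.17%. Among all cells of injured 1 and 2, Cox6a2 was found in 27.7 and 23.3% without mCherry and in 25.9 and 34.1% with it. With cells without mCherry left out of injured 3 and 4, an alternative chosen after seeing the data, 5 members were higher and 11 lower.

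Cells with at least 2 UMIs of Opn4 in 5000, the melanopsin gene of intrinsically photosensitive RGCs, numbered 10 or more in 4 libraries. Their nuclear share averaged 2.03 and 2.46% in uninjured 3 and 4 (10 and 10 cells) and 2.29 and 2.29% in injured 3 and 4 (12 and 14 cells). The other cells of those libraries averaged 2.06, 2.05, 1.85 and 1.82%. In injured 3 and 4 these other cells include cells without mCherry, whose nuclear share averaged 0.437 and 0.558%. Injured 3 and 4 also had 421 barcodes in common, so their values do not replicate each other. Cells with both Spp1 and Kcng4, markers of alpha RGCs, numbered under 10 in each library and gave no value.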

How the data were processed

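RNA of RGCs was measured by scRNA-seq in 6 uninjured and 4 injured libraries. The deposited values are unnormalized UMI count matrices that the authors made with Cell Ranger 7.0.1 on mm39, by their processing notes, for cells they had selected as RGCs. The stated limits of 500 genes, 20% mitochondrial UMIs and 150000 UMIs left 0 deposited cells outside. By the paper, the limit on UMIs was its measure against doublets, and no doublet caller was run here. The paper gives fewer injured cells than the 1609 of the files, which count the 421 barcodes common to injured 3 and 4 in each. With those barcodes counted once, the files hold fewer injured cells than the paper gives. The labels name the v3 kit and a NovaSeq sequencer, and the paper names the v2 kit, a HiSeq sequencer and an earlier version of Cell Ranger.

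Counts were summed per library in Python 3.11.15 (numpy 2.4.6, scipy 1.17.1, pandas 2.3.3), and injured 3 and 4 were averaged with rounding. In R 4.3.3, edgeR 4.0.16 was run on all genes (filterByExpr defaults, TMM, robust dispersion and robust quasi-likelihood test) with injury as its single term, and p-values were Benjamini-Hochberg adjusted at 0.05. In a check of this procedure on simulated data, wrong calls took a larger share of the calls than the threshold sets. SE was derived by dividing each log2 fold change by the root of its F value. Uninjured pairs were compared on log2 CPM with a pseudocount of 0.5. Members and lists were chosen with earlier results of these data known. Genes were named by rule: the 13 mitochondrially encoded genes, up to 3 rises and 3 falls past the threshold per complex, the nuclear gene with most UMIs per complex, paralog pairs, and up to 2 rises and 2 falls per pathway list. The alternatives, 30 in all, were DESeq2 1.42.0, other scaling, filters and cell sets, other groupings of libraries, and each library left out. Of these, cells without Xist, cells with mCherry in injured 3 and 4, and both uninjured 5 and uninjured 6 left out, were chosen after seeing the data. Figures were drawn with matplotlib 3.10.9.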

Additional observations from a re-analysis of the deposited data

Results flagged for a closer look

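UMIs of mCherry, which no comparison above uses as an outcome, were found in 7.99% of the cells of injured 1, 15.02% of injured 2, 86.0% of injured 3 and 84.3% of injured 4, against 0 of 1683 uninjured cells. The difference between injured 1 and 2 and injured 3 and 4 was not tested.

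Of 60 sets of sample values checked for a sample far from the rest of its group, 1 held such a sample. Cox8b per 100 Cox8a was 0.0112 in uninjured 5 and 0 in the other uninjured samples, so the gap to the nearest sample was 1 times the range of the group. The value rests on 1 UMI.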

How the results depend on the processing

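Over 30 alternatives, 42 of 53 named genes kept their direction throughout, and of 1572 values 33 reversed (Atp5g2 past the threshold in 3 of these), 101 lost and 35 gained a call. The named genes that reversed were not past the threshold with all samples, and the cause was not tested.

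Members past the threshold numbered 10 higher and 9 lower among cells with 3 to 5% Malat1 and 2 higher and 5 lower among cells with 4 to 10% mitochondrial UMIs. They numbered 2 higher and 8 lower with similar libraries summed, 12 higher with both uninjured 5 and uninjured 6 left out, 30 lower with library totals alone, 31 lower with all 10 libraries separate and 9 lower with both injured 3 and injured 4 left out. With libraries 1 to 4 of each condition, which count injured 3 and 4 separately, there were 13 higher and 25 lower with a replicate block and 12 higher and 27 lower without a block. The correlations between libraries of the same number after removing group means were -0.06, 0.01, -0.03 and -0.05, so the numbers do not pair libraries. With each library left out in turn, members numbered 4 to 6 higher and 8 to 17 lower.

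All genes past the threshold numbered 3528 (1859 higher, 1669 lower) with 3 to 5% Malat1, 3513 (1965 higher, 1548 lower) with 4 to 10% mitochondrial UMIs, 2146 lower with similar libraries summed and 1994 higher with cells thinned to 5000 UMIs. With each library left out they numbered 4961 to 6420 (2488 to 3090 higher, 2473 to 3330 lower).

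The nuclear median was 0.13 with 3 to 5% Malat1 and -0.40 to -0.18 with each library left out, and the mitochondrially encoded median was -0.0846 with 4 to 10% mitochondrial UMIs and -0.72 to -0.53 with each library left out. Injured minus uninjured, the nuclear share was 0.178 percentage points with 3 to 5% Malat1, and -0.571 to -0.276 with each library left out. The mitochondrially encoded share was -0.0218 points with 4 to 10% mitochondrial UMIs, a range that limits that share by construction, and -1.69 to -1.12 with each library left out. Against -1.35 points over all cells, it was -0.767 with both injured 3 and injured 4 left out and -0.71 with 3 to 5% Malat1. With cells thinned to 5000 UMIs it was -1.94 points.

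Log2 fold changes reversed as follows. With 3 to 5% Malat1, mt-Co1 was at 0.0764, Cox6b1 at 0.15, Cox7a2 at 0.33, Ndufa4 at 0.19, Atp5g3 at 0.16 and Atp5g2 at 0.43. With 4 to 10% mitochondrial UMIs, mt-Nd1 was at 0.0829, mt-Co1 at 0.36, mt-Co2 at 0.26, mt-Nd4 at 0.14 and Sdhb at -0.0292. With both uninjured 5 and uninjured 6 left out, Cox6b1 was at 0.00839, Cox7a2 at 0.18, Ndufa4 at 0.17, Atp5g3 at 0.0526 and Atp5g2 at 0.32. With the replicate block, mt-Co3 was at -0.0561, Cox7a2 at 0.11, Ndufa4 at 0.24, Atp5g3 at 0.11 and Atp5g2 at 0.32, and without a block at -0.0549, 0.12, 0.27, 0.13 and 0.31. With cells thinned to 5000 UMIs, mt-Co3 was at -0.11 and Sdhb at -0.16, and without cells holding at least 3 markers of another retinal class mt-Co3 was at -0.0515. With both injured 3 and injured 4 left out, mt-Co1 was at 0.0670. With each library left out, Sdhb was at -0.0387 to 0.25 and Atp5g2 at -0.27 to 0.0225.

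Cox6a2, Cox4i2, Cox6b2 and Cox7a1 were not tested where the filter of at least 10 counts in every library removed them, and 8 or fewer UMIs per uninjured library limit Cox6a2.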
